A study of Homo sapiens with 4 samples.

Results

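The origin licensing and replication fork genes are 53 genes whose products load the replicative helicase onto DNA, switch it on and copy the DNA at the fork. They were listed by gene name. In A549 cells, 52 of them were read by 69 probes matched through RefSeq accessions, out of 22439 genes matched in this way and 58201 probes on the array. *POLA2*, a subunit of DNA polymerase alpha, had no probe matched in this way and is given no level here.

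Replication is prepared before S phase begins, when the origin recognition complex (ORC), CDC6 and CDT1 load a ring of MCM proteins around DNA, a step called licensing. In S phase the CDC7-DBF4 kinase and a set of firing factors bring CDC45 and the GINS complex to the ring, and the CDC45-MCM-GINS assembly (the CMG helicase) unwinds the double strand. Polymerase alpha-primase then lays down primers, polymerases delta and epsilon extend them on the PCNA clamp, and FEN1 and LIG1 join the short fragments of the lagging strand. Many of these genes are transcribed most strongly around the entry into S phase, and lung adenocarcinoma cells in culture divide continuously.

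A549, a line established from a human lung adenocarcinoma, was used. The cells were grown in RPMI 1640, and total RNA was hybridised to 4 one-colour Agilent arrays. Of these, 1 array held RNA of cells transfected with *miR-486-5p* (the guide strand of pre-*miR-486*), 1 held RNA of cells transfected with *miR-486-3p* (the passenger strand), and 2 held RNA of mock cells, which received the reagent without any miRNA. They are called the 5p array, the 3p array and the mock arrays below. Every group received Lipofectamin RNAiMAX, each strand was used at 10 nM according to the reagent list of the study, and the time between transfection and RNA extraction was not given in the sources used here. No control miRNA was among the groups, so a response to any transfected small RNA and a response to the sequence of a strand cannot be told apart. Each strand had a single array and no replicate, and nothing in the labels says whether the mock arrays came from separate cultures, so p-values measure only the spread between these arrays, which may be technical.

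Between 30690 and 31516 probes per array were well above background. All were on 1 slide, scanned once, without a saturated spot. Levels are given as log2 scaled signal, the scanner's background-subtracted signal divided by the 75th percentile of its array, so that 0 is that percentile. The number of arrays limits the precision. Mock 1 minus mock 2, in log2 units, had an SD of 0.20 over the 28246 probes well above background on all 4 arrays, and of 0.13 over the 69 probes of the replication genes, all of which were well above background on all 4 arrays. Of 8 epithelial markers, 4 were well above background on every array, namely *KRT7*, *KRT8*, *KRT18* and *AKR1C1*. *EPCAM* and *NKX2-1* were so on 2 arrays each, *AKR1B10* on 1 and *CDH1* on none. The summed scaled signal of the 8 epithelial markers was 171 and 173 on the transfected arrays and 230 and 228 on the mock arrays, against 1.28 to 1.42 for 8 markers of blood, vessel and connective tissue cells. Of those 8, 5 were above background on all 4 arrays at these low sums, and *LUM*, *HBB* and *PECAM1* on none. Neither sum was tested against the changes below.

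The replication genes were lower after either strand, and further down after the passenger strand. After *miR-486-5p*, 43 of the 52 genes lay more than 0.5 below the mock mean on the log2 scale and 0 lay more than 0.5 above it. Over all genes measured, 15.9% of 16024 lay below this limit and 13.9% above it. The median difference of the replication genes was -0.84, or 55.9% of the mock level, against 0.03 over all genes. After *miR-486-3p*, 48 of the 52 genes lay below the limit and 1 above it, where 27.2% of 16446 genes lay below and 30.5% above. Their median difference was -1.73, or 30.1% of the mock level, against 0.06 over all genes. In RNA of bulk cells, fewer cells in S phase and less RNA per cell cannot be told apart. Apart from the arrays, the paper reported slower proliferation and, by flow cytometry, G0/G1 arrest of A549 cells after each strand. How far such an arrest entered the values here was not tested.

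**Figure D1:**
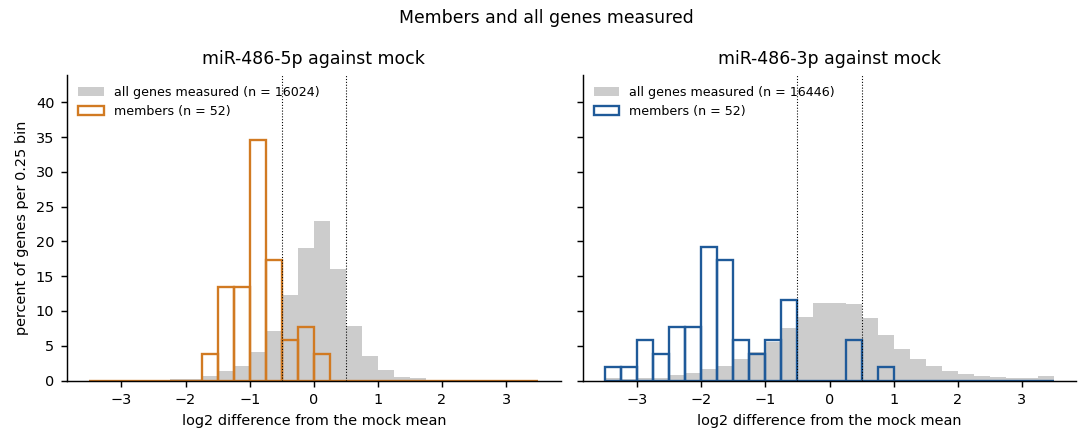
Percent of genes in each bin of 0.25 on the log2 scale, by log2 difference from the mock mean, for all genes measured (grey) and for the 52 replication genes (outline), 1 transfected array per panel; the first and last bins also hold the genes beyond them and dotted lines mark -0.5 and 0.5. The replication genes centre on -0.84 after *miR-486-5p* and on -1.73 after *miR-486-3p*, and all genes centre near 0.

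Spread among the replication genes also differed between the strands. The SD of their log2 differences was 0.41 after *miR-486-5p*, with values from -1.67 (*CDC45*) to 0.11 (*ORC4*). It was 0.92 after *miR-486-3p*, with values from -3.32 (*TICRR*) to 0.82 (*ORC4*). Over all genes measured the spread was wider there too, with 27.2% below -0.5 and 30.5% above 0.5, against 15.9% and 13.9% after *miR-486-5p*. All probes of a gene read below both mock arrays for 47 of the 52 genes on the 5p array and for 47 on the 3p array, where 38.6% and 42% of all genes did so. Both comparisons use the same mock arrays. With that shared reference, 41 genes lay below -0.5 after each strand, 2 on the 5p array alone, 7 on the 3p array alone and 2 after neither, and 8.22% of 15808 genes lay below it after each strand.

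The test across all probes was limma, with Benjamini-Hochberg adjustment over 33500 probes at 0.05. Its spread comes from mock 1, mock 2 and the other probes, and a single transfected array is taken to be as variable as those 2. For the guide strand, limma called 22 replication genes lower on at least 1 probe and 0 higher, beside 6.66% and 3.58% of 16662 genes. The adjusted p of the called genes lay between 0.0475 and 0.0493, close to the threshold. The count after *miR-486-5p* depended on the processing, since limma called 0 on the log2 values deposited by the authors and 47 with an intensity trend. Over all genes it called 0% and 25.03% lower in these fits, so the background moved with the count. For the passenger strand it called 47 genes lower and 2 higher, beside 31.6% and 31.9% of all genes. Below, a gene is said to have fallen or risen only where limma called it.

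**Figure D2:**
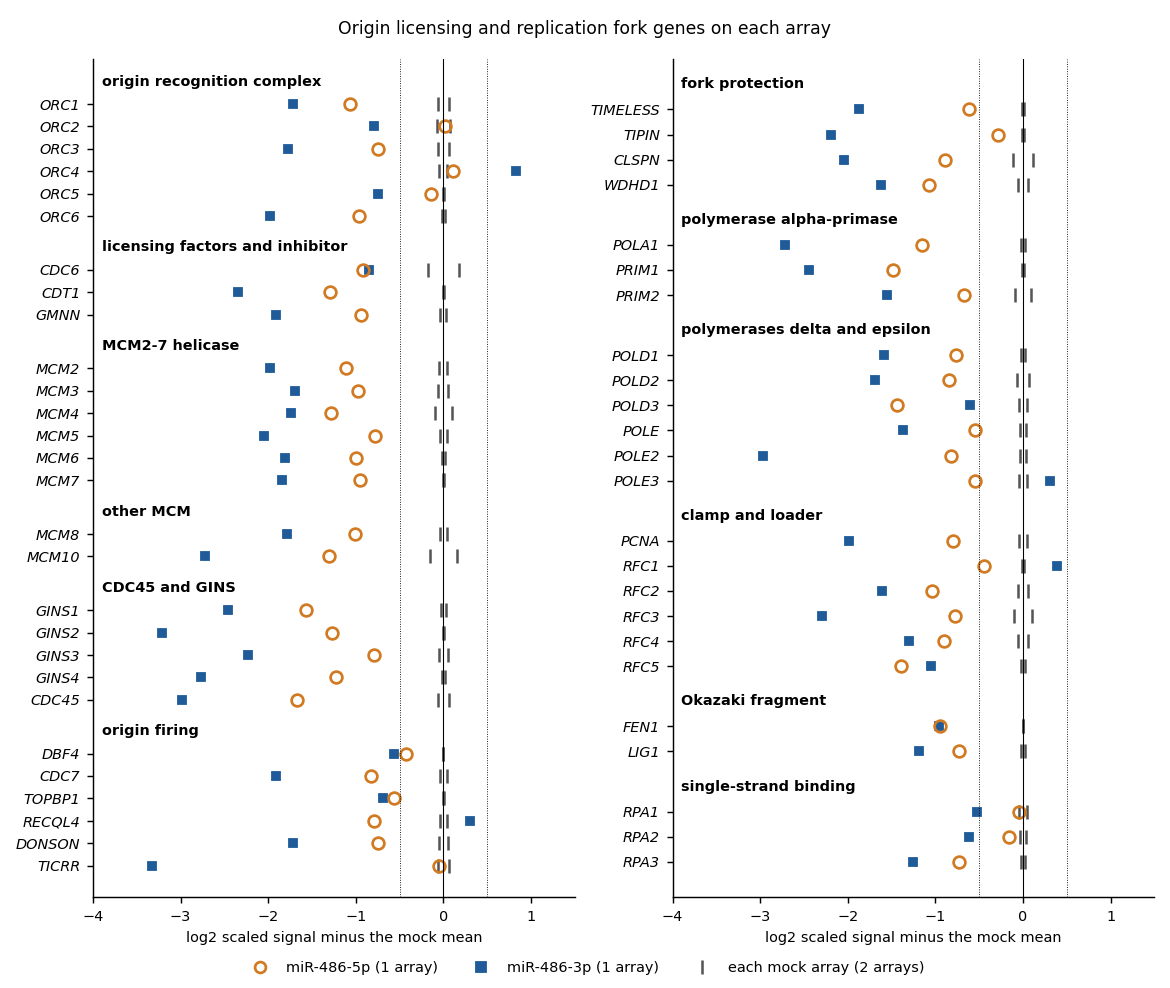
Log2 scaled signal minus the mock mean for each of the 52 replication genes, grouped by role, with the mean over probes where a gene has several; circles are the *miR-486-5p* array, squares the *miR-486-3p* array, vertical ticks the 2 mock arrays and dotted lines -0.5 and 0.5. Most squares lie left of the circles, and *ORC4*, *RECQL4*, *POLE3* and *RFC1* have squares right of 0.

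The CMG helicase was lower as a whole. All 6 genes of the MCM2-7 ring and all 5 genes of CDC45 and GINS lay below -0.5 after both strands. The MCM2-7 genes had a median of -0.98 on the 5p array and -1.82 on the 3p array. *CDC45* and the GINS genes had medians of -1.27 and -2.77. Limma called 5 of the 6 ring genes and 4 of the 5 other genes lower after *miR-486-5p*, and all 11 after *miR-486-3p*.

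Values within the ring lay close together. *MCM2* read 3.26 and 3.35 with mock reagent, 2.20 on the 5p array and 1.33 on the 3p array. *MCM3* read 5.43 and 5.32, then 4.40 and 3.68 in the same order. *MCM4* read 3.78 and 3.98, then 2.60 and 2.14. In each case both transfected arrays lay below both mock arrays, with the *miR-486-3p* array lowest. *MCM6* read 4.89 and 4.92 with mock reagent, 3.91 on the 5p array and 3.10 on the 3p array. *MCM5* and *MCM7* had a pair of probes each, which gave -0.87 and -0.70 for *MCM5* after *miR-486-5p* and -0.90 and -1.01 for *MCM7*. Each of these probes read lower on the 5p array than on either mock array, and lowest on the 3p array. After *miR-486-3p* the ring genes spanned only -1.69 (*MCM3*) to -2.05 (*MCM5*). *MCM5* was lower after the passenger strand than after the guide strand (log2 difference -1.27, limma adjusted p between 0.0148 and 0.0174 for its probes), whereas *MCM4* differed by -0.46 between the strands with an adjusted p of 0.113.

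*CDC45*, which ties the ring and GINS into an active helicase, was the lowest of the 52 genes after *miR-486-5p*. It read 4.71 and 4.60 on the mock arrays and 2.98 after *miR-486-5p*, a fall to 31.3% of the mock level (log2 difference -1.67, SE 0.11, limma adjusted p = 0.0475). After *miR-486-3p* it read 1.68, or 12.7% of the mock level (log2 difference -2.98, limma adjusted p = 0.00762). No value of a transfected array overlapped the mock arrays.

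The GINS complex holds the helicase at the fork, and its 4 genes differed in how far they lay below the mock mean. *GINS1* read 3.31 and 3.26 with mock reagent, 1.71 on the 5p array and 0.82 on the 3p array. *GINS2*, printed in 10 spots on each array, read 4.06 and 4.04, then 2.78 and 0.84. *GINS3* read 3.49 and 3.39, then 2.64 and 1.20, without a call after *miR-486-5p* (-0.79, limma adjusted p = 0.0533). The 10 spots of *GINS2* had an SD between 0.04 and 0.08 on each array, which measures the spread of spots within an array only. *GINS2* was 2.41-fold lower after *miR-486-5p* and 9.27-fold lower after *miR-486-3p*, where it was the second lowest of the 52 genes. Between the strands it differed by -1.95 (SE 0.10, limma adjusted p = 0.0119), compared with -0.89 for *GINS1*.

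*GINS4* read 3.05 and 3.02 with mock reagent, 1.81 on the 5p array and 0.27 on the 3p array. The gene fell to 42.7% and 14.6% of the mock level (log2 differences -1.23 and -2.77, SE 0.09, limma adjusted p = 0.0475 and 0.00762). *MCM8*, a helicase used in recombination, read 2.22 and 2.30 on the mock arrays, then 1.25 and 0.47, and fell after each strand (log2 differences -1.01 and -1.78). *TIMELESS*, of the fork protection complex, read 5.27 and 5.24, then 4.64 and 3.38. *TIMELESS* lay 0.61 below the mock mean after *miR-486-5p* without passing the test (limma adjusted p = 0.0572) and fell by 1.88 after *miR-486-3p*. These 3 genes stand in the study's table of candidate targets, which was drawn up on the same arrays, so their direction is not independent evidence. All 3 lay below -0.5 after both strands, so leaving them out only took them off the counts. That left 40 genes below -0.5 on the 5p array and 45 on the 3p array, a result fixed beforehand. Apart from the arrays, the paper measured *GINS4* and *TIMELESS* by quantitative PCR in A549 cells. It reported *GINS4* lower after both strands, and *TIMELESS* lower after *miR-486-3p* but not significantly so after *miR-486-5p*. For *GINS4* the paper also reported lower RNA in another lung adenocarcinoma line, and lower protein in both lines, after each strand. In its luciferase assays, each strand reduced the signal of a reporter with its site from the *GINS4* untranslated region. A reporter without the site did not change.

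**Figure D3:**
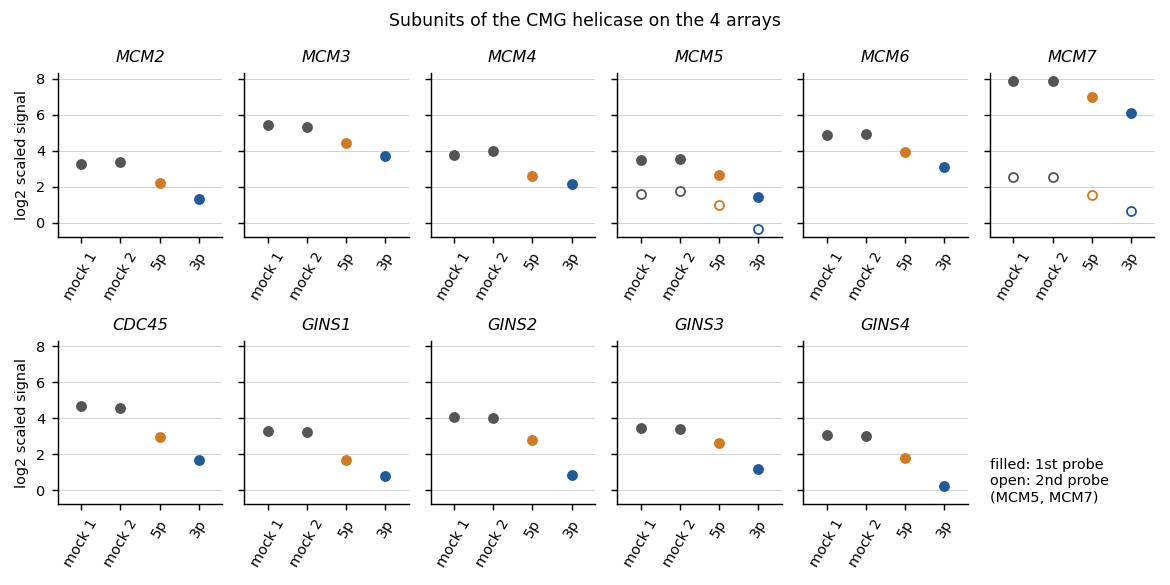
Log2 scaled signal of each CMG helicase gene on the mock 1, mock 2, *miR-486-5p* and *miR-486-3p* arrays, 1 point per probe, with open points for the additional probe of *MCM5* and *MCM7*. In every panel the mock points lie together, the *miR-486-5p* point is lower and the *miR-486-3p* point is lowest; levels of different probes are not comparable.

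*MCM10*, which helps to activate the helicase, read 0.26 and 0.57 with mock reagent, -0.89 on the 5p array and -2.30 on the 3p array. The gap between its mock arrays was among the widest of the 52 genes. It fell by 2.72 on the log2 scale after *miR-486-3p*. With normexp background correction, which adds 50 to each signal and so narrows differences of dim probes, the difference was -1.20. The difference of *MCM10* after *miR-486-5p*, -1.31, did not pass the test (limma adjusted p = 0.0562).

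In the licensing group the 3 genes lay below -0.5 after both strands. *CDT1*, the loading factor, read 4.53 and 4.54 with mock reagent, 3.24 on the 5p array and 2.20 on the 3p array. *GMNN* encodes geminin, the inhibitor of CDT1, and it read 4.59 and 4.52, then 3.61 and 2.64. Both the loading factor and its inhibitor fell after each strand, to 40.8% and 19.8% of the mock level for *CDT1* and to 52% and 26.6% for *GMNN*. *CDC6* read -2.14 and -2.50 on the mock arrays, then -3.23 and -3.16. It was dim, its mock arrays stood 0.36 apart, and neither difference passed the test (-0.92 with limma adjusted p = 0.0911, and -0.85 with 0.0573). With normexp they were -0.19 and -0.11.

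The origin recognition complex did not move as a block. The median of its 6 genes was -0.45 for the guide strand and -1.25 for the passenger strand. *ORC1*, the subunit whose level varies with the cell cycle, read -0.75 and -0.62 with mock reagent, -1.74 on the 5p array and -2.40 on the 3p array. *ORC6*, read by 10 spots per array, gave 1.53 and 1.55, then 0.58 and -0.44. These 2 genes fell after each strand, to 47.9% and 51.4% of the mock level after *miR-486-5p* and to 30.4% and 25.4% after *miR-486-3p*. With normexp background correction *ORC1* differed by only -0.46 and -0.60. *ORC3* fell after *miR-486-3p* (-1.77) and lay at -0.75 after *miR-486-5p* with adjusted p of 0.0503 and 0.0803 for its probes in limma. *ORC2* and *ORC5* were near the mock level after *miR-486-5p* (0.01 and -0.14, the sign of *ORC2* turning under median scaling) and fell after *miR-486-3p* (-0.79 and -0.74).

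*ORC4* was the exception in the complex. Its brighter probe read 2.22 and 2.16 with mock reagent, 2.25 on the 5p array and 2.89 on the 3p array. The dimmer probe read -1.06 and -1.19, then -0.98 and -0.18. Both probes were highest on the *miR-486-3p* array. The gene rose by 0.82 on the log2 scale after *miR-486-3p* (limma adjusted p of 0.0163 and 0.02 for its probes), and by 0.45 where arrays were scaled by the median, a scaling that moved the median of all genes after *miR-486-3p* from 0.06 to -0.32. After *miR-486-5p* the difference was 0.11 and limma did not call it (adjusted p of 0.399 and 0.64).

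Among the origin firing factors, single genes separated the strands while the median difference between the strands over the 6 genes was -0.56. *TICRR*, also named treslin, helps to bring CDC45 to licensed origins and had 1 probe. It read 0.00 and -0.12 with mock reagent, -0.11 on the 5p array and -3.39 on the 3p array. The *miR-486-5p* array thus lay between the mock arrays, and the *miR-486-3p* array was far below all others. *TICRR* fell to 9.98% of the mock level after *miR-486-3p* (log2 difference -3.32, SE 0.11, limma adjusted p = 0.00762) and stood at 96.8% after *miR-486-5p* (-0.05, adjusted p = 0.775). The difference between the strands was -3.28 (limma adjusted p = 0.0119), the largest of the 52 genes. With normexp background correction, *TICRR* differed by -1.16 after *miR-486-3p* and by -1.09 between the strands.

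*CDC7*, the kinase that acts on the MCM ring, read 2.20 and 2.12 on the mock arrays, then 1.33 and 0.25, and fell by 1.91 after *miR-486-3p*. *DONSON*, which helps GINS to join the ring, and *TOPBP1*, a scaffold for the firing factors, fell with it (-1.71 and -0.69). After *miR-486-5p* these 3 genes lay at -0.83, -0.74 and -0.56 without passing the test. The probes of *DBF4*, the activator of CDC7, disagreed. Its brighter probe read 2.22 and 2.15 with mock reagent, 1.65 on the 5p array and 0.73 on the 3p array. The dim probe read -3.21 and -3.14, then -3.49 and -2.85. After *miR-486-3p* the brighter probe fell (-1.46) and the dim one lay 0.32 above the mock mean without a call, so the mean of -0.57 describes neither.

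*RECQL4*, a helicase of the firing step, had 4 probes. After *miR-486-5p* 3 of them lay between -0.96 and -1.20 and the remaining one at 0.17. After *miR-486-3p* all 4 lay between 0.12 and 0.48. The brightest probe read 4.88 and 4.78 with mock reagent, 3.63 on the 5p array and 4.95 on the 3p array. In the same order the dimmest read -2.27 and -2.71, then -3.65 and -2.15, with the widest gap between the mock arrays among the 69 probes (0.45). *RECQL4* was thus lower after the guide strand on 2 probes that limma called (adjusted p = 0.0475), and its mean of 0.30 after the passenger strand was not called and turned to -0.07 under median scaling. Its difference between the strands, 1.09, was the highest of the 52 genes, with limma adjusted p from 0.015 to 0.205 over the probes.

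**Figure D4:**
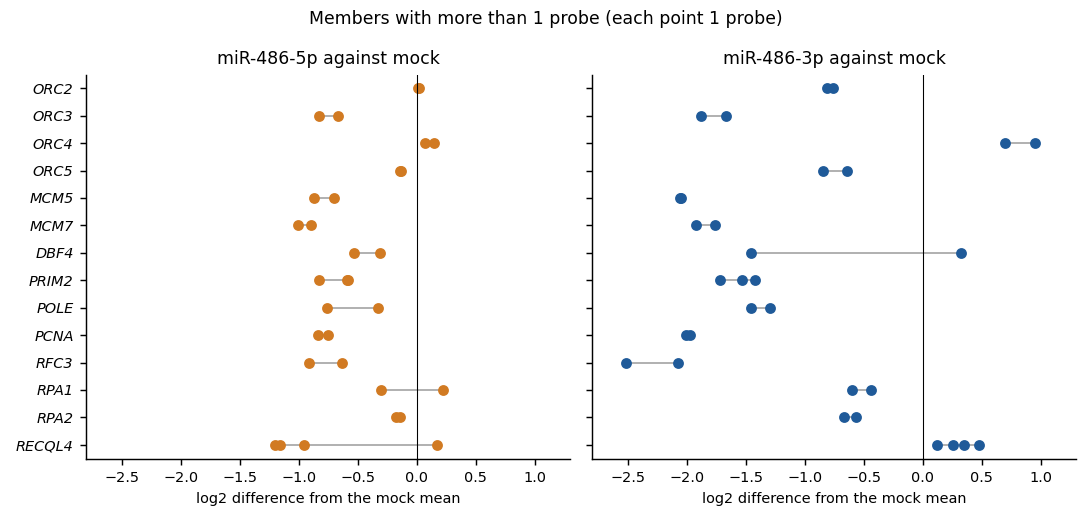
Log2 difference from the mock mean for each probe of the 14 replication genes with more than 1 probe, 1 point per probe and 1 transfected array per panel. Only *RECQL4* on the 5p array and *DBF4* on the 3p array have probes that span more than 1. The probes of *RPA1* have opposite signs on the 5p array.

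At the fork, the protection genes separated the strands again. *TIPIN*, the partner of TIMELESS, read 3.80 and 3.78 with mock reagent, 3.51 on the 5p array and 1.60 on the 3p array. *CLSPN*, the claspin gene of the replication checkpoint, read 0.06 and -0.16, then -0.94 and -2.09. *TIPIN* lay at -0.28 after *miR-486-5p* without a call (limma adjusted p = 0.137) and fell by 2.19 after *miR-486-3p*. The difference of *TIPIN* between the strands was -1.91 (limma adjusted p = 0.0119). *WDHD1* links the helicase to polymerase alpha and fell after each strand (-1.07 and -1.62). After *miR-486-3p*, normexp gave -1.04 for *WDHD1*, and it gave -0.91 for *CLSPN* in place of -2.04.

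The primer-making polymerase alpha-primase was lower after both strands, with medians of -1.16 and -2.44 over the 3 genes measured. *PRIM1*, the catalytic primase subunit, was read by 10 spots and gave 3.18 and 3.17 with mock reagent, 1.69 on the 5p array and 0.73 on the 3p array. *POLA1*, the catalytic subunit of the polymerase, gave 3.20 and 3.15, then 2.01 and 0.46. Both genes fell after each strand, *PRIM1* to 35.7% and 18.4% of the mock level and *POLA1* to 44.8% and 15.3%. The 3 probes of *PRIM2* gave -0.58 to -0.83 after *miR-486-5p*, none called, and -1.42 to -1.72 after *miR-486-3p*, all called. With normexp their mean after *miR-486-3p* was -0.82 in place of -1.56.

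Subunits of polymerases delta and epsilon did not keep together. The catalytic subunits *POLD1* and *POLE* fell after *miR-486-3p* (-1.58 and -1.37), and after *miR-486-5p* they lay at -0.77 and -0.55 without a call. With normexp *POLE* lay at -0.41 after *miR-486-3p* and at -0.20 after *miR-486-5p*, both inside the limit of 0.5. *POLE2*, a structural subunit of polymerase epsilon, read 1.43 and 1.36 with mock reagent, 0.57 on the 5p array and -1.57 on the 3p array. It fell to 12.8% of the mock level after *miR-486-3p*, and the strands differed by -2.14 (limma adjusted p = 0.0119), values that were -1.92 and -1.24 on the log2 scale with normexp. *POLE3*, a histone-fold subunit of the same polymerase, read 4.33 and 4.42, then 3.83 and 4.68. *POLE3* was thus above both mock arrays after *miR-486-3p* by a mean of 0.31, which limma did not call (adjusted p = 0.0945). The *POLE3* difference was -0.07 under median scaling and 0.58, past the limit, with quantile normalization or the authors' log2 values.

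*POLD3*, an accessory subunit of polymerase delta, was lower after the guide strand than after the passenger strand. It read 1.80 and 1.72 with mock reagent, 0.32 on the 5p array and 1.16 on the 3p array. *POLD3* fell to 36.9% of the mock level after *miR-486-5p* (log2 difference -1.44, SE 0.10, limma adjusted p = 0.0475) and to 65.9% after *miR-486-3p* (-0.60, adjusted p = 0.0277). The strands differed by 0.84 (limma adjusted p = 0.0249).

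The sliding clamp and its loader were lower with 1 exception. *PCNA*, the clamp, had a pair of probes that read 4.66 and 4.60, and 3.89 and 3.79, on the mock arrays. They read 3.80 and 3.09 after *miR-486-5p*, then 2.62 and 1.87 after *miR-486-3p*. *PCNA* fell to 25.2% of the mock level after *miR-486-3p* and lay at 57.6% after *miR-486-5p*, where its probes missed the threshold (limma adjusted p of 0.0503 and 0.0552). *RFC5*, a small loader subunit, read 3.90 and 3.86 with mock reagent, 2.48 on the 5p array and 2.83 on the 3p array. It fell after each strand (-1.40 and -1.05). *RFC1*, the large loader subunit, read 3.09 and 3.06, then 2.63 and 3.46. After *miR-486-3p* it lay above both mock arrays and was called higher (0.39, limma adjusted p = 0.0496), a difference of 0.02 under median scaling and of 0.56 with quantile normalization. After *miR-486-5p* it lay at -0.44 without a call.

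*RFC2*, *RFC3* and *RFC4* lay at -1.04, -0.77 and -0.90 after *miR-486-5p*, with a call for *RFC2* alone, and fell after *miR-486-3p* (-1.60, -2.30 and -1.30), with *RFC3* at -0.996 there after normexp. Among the genes for joining fragments, *FEN1*, the flap nuclease, read 1.76 and 1.75 with mock reagent, 0.81 on the 5p array and 0.80 on the 3p array. It fell after each strand (-0.94 and -0.96), with a difference between the strands of -0.01 (SE 0.10, limma adjusted p = 0.936) whose sign turned under quantile normalization. *LIG1*, the ligase, lay at -0.73 after *miR-486-5p* without a call and fell after *miR-486-3p* (-1.18).

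The genes of the single-strand binding protein RPA differed among themselves. *RPA1* and *RPA2* lay at -0.04 and -0.16 after *miR-486-5p*, and their probes were not called. *RPA3* lay at -0.73, past the limit of 0.5 but not called (limma adjusted p = 0.0525). The probes of *RPA1* gave -0.31 and 0.22 there. Its brighter probe read 4.83 and 4.81 with mock reagent, 4.51 on the 5p array and 4.38 on the 3p array. All 3 genes fell after *miR-486-3p*, with differences of -0.52 for *RPA1*, -0.62 for *RPA2* and -1.25 for *RPA3*.

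The strands were also set against each other directly, a comparison in which the mock arrays give only the spread. Of the 52 genes, 45 read lower after *miR-486-3p* than after *miR-486-5p* and 7 higher. The median difference was -0.84, against 0.03 over all genes. Differences past 0.5 numbered 37 lower and 5 higher, where 26.4% and 28.6% of 16561 genes were. Limma called 38 genes lower and 6 higher on at least 1 probe, beside 27.3% and 26.7% of all genes. *DBF4*, with a probe called in each direction and a mean of -0.15, counts among both. The 7 genes that read higher after the passenger strand were *ORC4*, *RECQL4*, *POLE3*, *POLD3*, *RFC1*, *RFC5* and *CDC6*. Of these, *RFC5* (0.35) and *CDC6* (0.07) were not called, and *CDC6* turned to -0.23 under median scaling.

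Promoter sequence was set beside these values because E2F factors and the CCAAT-binding factor NF-Y are known regulators of replication genes. RefSeq promoters of build GRCh38.p14 were matched by symbol for 45 of the 53 genes, *POLA2* included. Of these, 11 had more than 1 promoter, 59 in all, a gene was counted as holding a motif where any of its promoters did, and the 250 bases before the gene start were searched on both strands. An E2F motif, written as TTTCCCGC or TTTGGCGC, was held by 14 of the 45 genes (31.1%), where 2.36% of 27305 genes and 3.65% of 11632 genes well above background on all arrays held it. Counted by single promoter, it was 14 of 59 (23.7%) against 1.93% of 35116. TTTGGCGC can overlap its own reverse complement, as in *TIPIN* below, and 5 genes held the motif in some but not all of their promoters. The CCAAT box was held by 26 of 45 genes (57.8%), where 37.0% of all genes held it. The genes with the motif were *CDC7*, *CDT1*, *GINS2*, *GMNN*, *LIG1*, *MCM3*, *MCM6*, *MCM7*, *ORC3*, *PCNA*, *POLA1*, *POLE*, *RFC3* and *TIPIN*. Below are the bases just before the start of 5 of them, chosen to show one gene each of the ring, the loading factor, GINS, the clamp and fork protection, with the E2F motif in capitals. *ORC4* and *RFC1*, the genes called higher after *miR-486-3p*, follow as promoters without it. The motif was also absent from *CDC45*, *POLE2* and *TICRR*, which were among the lowest genes after *miR-486-3p*. *PCNA*, *TIPIN* and *ORC4* each had another promoter, none with the motif.
*MCM6* (chr2:135876444-135876615, - strand): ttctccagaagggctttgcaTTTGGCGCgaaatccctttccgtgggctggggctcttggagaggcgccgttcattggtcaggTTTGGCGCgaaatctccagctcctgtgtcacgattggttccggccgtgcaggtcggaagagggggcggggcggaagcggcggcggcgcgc
*CDT1* (chr16:88803669-88803788, + strand): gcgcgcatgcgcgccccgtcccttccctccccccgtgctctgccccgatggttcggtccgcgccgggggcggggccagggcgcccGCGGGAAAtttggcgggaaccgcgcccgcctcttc
*GINS2* (chr16:85688955-85689074, - strand): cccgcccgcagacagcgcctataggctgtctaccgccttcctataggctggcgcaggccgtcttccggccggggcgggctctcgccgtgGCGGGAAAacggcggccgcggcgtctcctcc
*PCNA* (chr20:5126623-5126742, - strand): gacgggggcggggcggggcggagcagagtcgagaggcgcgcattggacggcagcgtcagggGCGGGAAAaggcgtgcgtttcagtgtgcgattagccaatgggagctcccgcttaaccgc
*TIPIN* (chr15:66356686-66356805, - strand): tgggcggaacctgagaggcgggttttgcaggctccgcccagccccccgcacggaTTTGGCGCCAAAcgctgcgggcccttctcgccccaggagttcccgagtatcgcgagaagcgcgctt
*ORC4* (chr2:148020738-148020857, - strand): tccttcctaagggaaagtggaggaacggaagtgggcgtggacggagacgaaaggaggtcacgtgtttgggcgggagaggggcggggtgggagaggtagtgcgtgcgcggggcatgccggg
*RFC1* (chr4:39366363-39366482, - strand): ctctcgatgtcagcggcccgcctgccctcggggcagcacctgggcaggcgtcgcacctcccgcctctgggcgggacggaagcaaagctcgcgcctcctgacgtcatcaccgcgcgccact

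The *MCM6* promoter shown held 2 copies, 152 and 90 bases before the start, and the *TIPIN* promoter held 2 that overlap, beginning 66 and 62 bases before it. *CDT1*, *GINS2* and *PCNA* held 1 copy each, at 35, 31 and 59 bases. Genes with the motif and genes without it had similar medians after *miR-486-5p* (-0.89 over 14 genes and -0.87 over 30) and medians of -1.91 and -1.61 after *miR-486-3p*. Of the genes below -0.5 after both strands, 13 of 35 held the motif, and of the others 1 of 9, *TIPIN*. A match of letters is not a binding site, and the absence of a match says nothing about the factor.

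Other genes of the pathway were taken from lists by role. Among 20 accessory replisome genes, 11 lay below -0.5 on the 5p array and 13 on the 3p array, with 0 above 0.5 in either case, and the medians were -0.59 and -1.07. Over all genes, 15.9% and 27.2% lay below -0.5, and 13.9% and 30.5% above 0.5. On the 5p array limma called 6 lower, and on the 3p array it called 15 lower and 1 higher. Over all genes it called 6.66% lower on the 5p array, and 31.6% lower and 31.9% higher on the 3p array. The higher one was *MCM9*, which had a probe called in each direction. *DSCC1*, of the alternative clamp loader, fell after each strand (-1.20 and -3.13), as did *TOP2A*, the topoisomerase that untangles sister DNA (-1.14 and -2.88). *TRAIP*, a ligase that unloads the helicase, fell too (-1.36 and -2.42). The subunits *POLD4* and *POLE4* lay at 0.37 and 0.08 after *miR-486-5p* and at 0.16 and -0.16 after *miR-486-3p*, none called.

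Among 15 genes that control licensing, 5 lay below -0.5 after *miR-486-5p* and 0 above 0.5, and after *miR-486-3p* 8 lay below and 3 above. *DTL*, which marks CDT1 for destruction, fell after each strand (-1.37 and -2.21), and so did *CCNA2*, an S phase cyclin (-1.19 and -3.51). *CCNE1*, a cyclin of S phase entry, lay at -0.46 after *miR-486-5p* without a call and rose by 1.44 after *miR-486-3p*. Limma called 3 lower after *miR-486-5p*, and 8 lower and 5 higher after *miR-486-3p*.

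DNA polymerases outside the replication fork had medians nearer the mock level, at -0.02 and -0.06. Of the 12 measured after *miR-486-5p*, 1 lay below -0.5, and of the 13 after *miR-486-3p* 4 lay below and 1 above. Over all genes, 15.9% lay below after *miR-486-5p*, and 27.2% below and 30.5% above after *miR-486-3p*. The 4 below after *miR-486-3p* were thus near the share of all genes. *POLQ*, the polymerase of microhomology end joining, fell after each strand (-1.46 and -2.11). *POLN* was not well above background on the mock arrays and was at least 5.58-fold higher after *miR-486-3p*. The 14 reference genes had medians of -0.15 and -0.26 with single genes well off 0, since *GUSB* fell after *miR-486-5p* (-1.27) and *RPLP0* after *miR-486-3p* (-2.84). *GAPDH* lay at -0.24 and 0.36 and *ACTB* at -0.43 and -1.06.

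**Figure D5:**
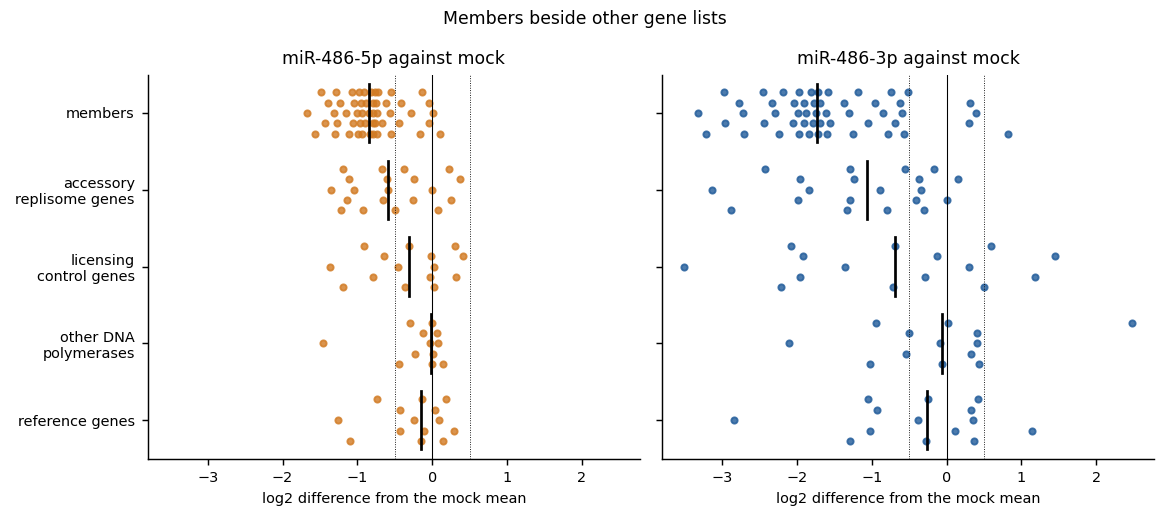
Log2 difference from the mock mean for the 52 replication genes and for 4 other lists, 1 point per gene with a bar at the median and 1 transfected array per panel; vertical offsets only separate points and dotted lines mark -0.5 and 0.5. Medians of the replication genes are -0.84 and -1.73, those of the accessory replisome genes -0.59 and -1.07, and those of the other DNA polymerases and the reference genes lie between -0.26 and -0.02.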

How the data were processed

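Per the file headers, the authors read the 4 one-colour arrays with Agilent Feature Extraction 12.1.1.1, which subtracted the background of each spot, and the deposited intensity values are these processed signals. The deposited log2 values are a table by the authors with identical quartiles on all 4 arrays (0.15, 2.76 and 6.28) and a correlation with the scanner log2 signal of 0.9996 or more. Its normalization method was not given in the sources used here.

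Control spots and outlier spots were left out and repeated spots of a probe averaged. The signal was divided by the 75th percentile of its array and taken to log2. Probes were named through RefSeq accessions, with 31104 of 33080 such probes matched, and a gene's value is the mean over its probes. Probes entered a comparison if the scanner marked them well above background in both mock samples, or else in the transfected sample. Differences are the transfected value less the mock mean, and the limit was 0.5. Groups came from the sample labels.

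Tests used limma 3.58.1 in R 4.3.3 (1 residual degree of freedom, prior of 1.75) on 33500 probes, and the method was tested on simulated data. No p-value was computed over a list. The genes and lists were chosen with earlier results of these data known. Named genes are the CMG and licensing genes, the 3 of the study's candidate table, the 5 lowest and 5 highest per strand, genes with discordant probes, up to 3 per strand and direction from other lists, *GAPDH* and *ACTB*, and other members by role. Genome positions are given for promoters only (GRCh38.p14, not the build of the array), and no sequence of the miRNA is given. Depth has no meaning for arrays, and alternatives are described in the closing section.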

Additional observations from a re-analysis of the deposited data

How the results depend on the processing

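Over 9 alternatives, 1288 of 1300 values of single replication genes kept their sign, and 0 of those past 0.5 reversed. Part of this count was fixed beforehand. Dropping the filter on dim probes, or requiring it on every array, could not move any of the 156 values per setting, since all 69 probes passed. Choosing 1 probe per gene could not move the 38 genes with a single probe. Median scaling shifted single values by a median of 0.30, normexp by 0.14 and quantile normalization by 0.05. The sign turned for *ORC2* and *TICRR* after *miR-486-5p*, for *POLE3* and *RECQL4* after *miR-486-3p*, and for *CDC6* and *FEN1* between the strands, and the values reported for these lay between -0.05 and 0.31. With median scaling the medians were -0.92 and -2.10 for the 2 strands and -1.13 between them, with 0 genes above 0.5 after *miR-486-3p*, and the median of all genes shifted to -0.05 and -0.32. With quantile normalization and with the authors' log2 values the median after *miR-486-3p* was -1.67 and 3 genes lay above 0.5. With normexp the medians were -0.73, -1.32 and -0.57, and single values shifted by up to 2.19 (*TICRR* between the strands). Normexp added an offset of 50 to each signal, where the 75th percentile of the processed signal was 93.1 to 114 per array. Such an offset narrows differences of dim probes, and its share in these shifts was not tested. The brightest probe per gene gave -0.89 after *miR-486-5p*. Leaving out either mock array gave medians of -0.79 to -0.87 after *miR-486-5p* and -1.75 to -1.77 after *miR-486-3p*. With a limit of 1, 16 genes lay lower after *miR-486-5p*, and 39 lower and 0 higher after *miR-486-3p*, with 18 lower and 1 higher between the strands. These counts have no share of all genes beside them, since the shares given above hold for the limit of 0.5. For *miR-486-5p* limma called 47 lower with an intensity trend, 46 after normexp and 0 on the authors' log2 values (prior degrees of freedom 1.08), where 25.03%, 23.1% and 0% of all genes were called lower. For *miR-486-3p* it called 4 higher with a trend, 4 on quantile-normalized values and 5 after normexp. Over all genes it called 38.2%, 31.6% and 46.0% higher in these fits. The methods' t-test called 29 and 43 genes lower unadjusted, beside 14.0% and 23.2% of all genes. After Benjamini-Hochberg adjustment it called 0 lower and 0 higher for either strand, and it has 1 residual degree of freedom. Leaving out the candidate-table genes was an alternative chosen after seeing the data. It left the counts within 1.5 times, which was fixed beforehand because it took out only 3 genes.

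No paired analysis was possible because a strand was hybridised only once, so groups have no more than 1 replicate number in common. Matching by gene name and a slide block (all arrays lay on 1 slide) were not run, and normexp used the median signal in place of the mean. Limma was not run with 1 mock array, which leaves no residual degrees of freedom. The single array per strand limits every value above.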
